A study of Mus musculus with 8 samples.

Results

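Described here are 9 genes of the basic helix-loop-helix (bHLH) class: the neurogenins Neurog1 and Neurog2, the NeuroD factors Neurod1, Neurod2, Neurod4 and Neurod6, the related factors Nhlh1 and Nhlh2, and Atoh1. They were taken by gene symbol from the per-gene read counts, and all 9 were found among 38355 genes. The libraries came from C57Bl6 mouse embryos at E11.5, from thoracic dorsal root ganglia, where the cell bodies of sensory neurons lie, taken along with spinal cord. The 4 wild-type libraries (WT) were set against 4 libraries of genotype Prdm12-/- (KO), which lack Prdm12, a zinc-finger regulator of the PRDM class. The series addresses which genes Prdm12 controls in somatosensory neurons, and its design text mentions triplicates although 4 libraries a group were used here.

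The labels do not say how the Prdm12 allele was made, or whether a library is 1 embryo or a pool, so the p-values weigh the groups against a spread between libraries that may be technical. Because ganglia and cord share a library, a level cannot be assigned to either tissue, and fewer cells of a type cannot be told apart from less RNA per cell. WT replicate 1 held 67782435 counts, and the other 7 libraries held between 23088908 and 28500792. Prdm12 was at 22.2 to 39.6 CPM (counts scaled to the normalized library size, as CPM throughout) in WT and at 0.962 to 1.55 CPM in KO, so the libraries matched their labels. In WT Pou4f1, a gene of sensory neurons and some dorsal cord interneurons, was at 93.9 ± 9.37 CPM and Pax7, a gene of dorsal cord and muscle progenitors, at 51.9 ± 2.21 CPM (SD, n = 4 each), neither being specific to either labelled tissue.

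Proneural bHLH factors bind DNA at E-boxes as dimers with E proteins, and Id proteins oppose them by taking up the E proteins. In dividing precursors the neurogenins and Atoh1 start neuron formation and switch on Notch ligands, and the Hes repressors that Notch induces hold proneural genes down in neighbouring cells. Neurod1, Neurod4, Nhlh1 and Nhlh2 act later, in cells leaving the cycle and in newborn neurons. In the dorsal root ganglia an early wave of neurons depends mainly on Neurog2 and a later wave, which gives rise to most nociceptors, on Neurog1, while Atoh1 marks the most dorsal progenitors of the cord.

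The upstream sequences of the 3 genes that fell in KO are shown because bHLH dimers bind the E-box, CANNTG. Windows of 250 bases before the start site came from RefSeq (GRCm38.p6) for 9 of 9 genes, with 2 start sites for Neurod4, 10 windows in all. Sequences run 5′ to 3′ on the gene's strand, with any CANNTG in capitals. Of the Neurod1 window only the 101 bases outside annotated exons are printed, since first exons of Neurod1 and the overlapping gene Cerkl reach into it. GENCODE places the start of Neurod1 115 bases farther upstream than RefSeq does.
Neurog1 (chr13:56252181-56252430, minus strand): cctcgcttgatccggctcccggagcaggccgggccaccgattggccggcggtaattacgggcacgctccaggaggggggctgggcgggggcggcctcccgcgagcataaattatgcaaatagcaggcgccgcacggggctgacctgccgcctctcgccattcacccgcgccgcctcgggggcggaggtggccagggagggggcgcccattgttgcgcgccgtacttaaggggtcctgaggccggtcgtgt
Neurod1 (chr2:79456786-79456886, minus strand): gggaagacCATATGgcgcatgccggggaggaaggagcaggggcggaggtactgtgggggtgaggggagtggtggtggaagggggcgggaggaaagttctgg
Nhlh1 (chr1:172057597-172057846, minus strand): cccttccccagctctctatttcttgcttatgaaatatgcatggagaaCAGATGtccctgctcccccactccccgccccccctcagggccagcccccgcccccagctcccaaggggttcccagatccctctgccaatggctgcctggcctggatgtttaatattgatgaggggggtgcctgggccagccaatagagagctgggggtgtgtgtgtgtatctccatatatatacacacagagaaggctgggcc

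The Neurod1 window held a single E-box, CATATG, starting 242 bases before the RefSeq start and 127 bases before the GENCODE start. The Nhlh1 window held a single CAGATG starting 203 bases before the RefSeq start and 226 before the GENCODE start, and the Neurog1 window held no CANNTG. A window with CANNTG was present for 5 of the 9 genes, and 66.2% of all 32851 windows of this length held one. CAGATG, read on both strands, was present for 3 of the 9 genes (Neurod2, Nhlh1 and Nhlh2) and in 14.4% of all windows, and CATATG for 2 (Neurod1 and Neurod2) and in 3.46%. CAGCTG was in none of the 9 and in 13.0% of windows. The N-box CACNAG, which Hes repressors can bind, was found on either strand for 3 genes (Neurod4, Neurod6 and Nhlh2) and in 36.7% of windows. CANNTG contains the other 3 E-box forms, and each match is a match of letters only.

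In KO libraries 3 of the 9 bHLH genes fell (Neurod1, Nhlh1 and Neurog1), 0 rose and 6 did not pass the test at an adjusted p under 0.05. None of the 9 passed with the mean log2 level of 14 muscle and mesenchyme genes, all with positive log2 fold changes, as a covariate. A block on replicate number also left none of the 9 called (edgeR adjusted p = 0.0503 for Neurod1 and 0.0536 for Nhlh1 and Neurog1). Over all 16068 tested genes 0.243% fell and 0.056% rose. In 5 of the 9 genes every KO library lay below every WT library (Neurod1, Nhlh1, Neurog1, Neurod4 and Nhlh2), against 2.45% of tested genes. At an unadjusted p under 0.05, Neurog2, Neurod4 and Nhlh2 joined the 3 fallen genes, making 6 lower and 0 higher, where 3.32% and 3.03% of tested genes were lower and higher. The median log2 fold change of the 9 was −0.38, and that of all tested genes was −0.003. All 9 genes passed the filter on low counts. The plot of CPM by library shows these values gene by gene.

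**Figure D1:**
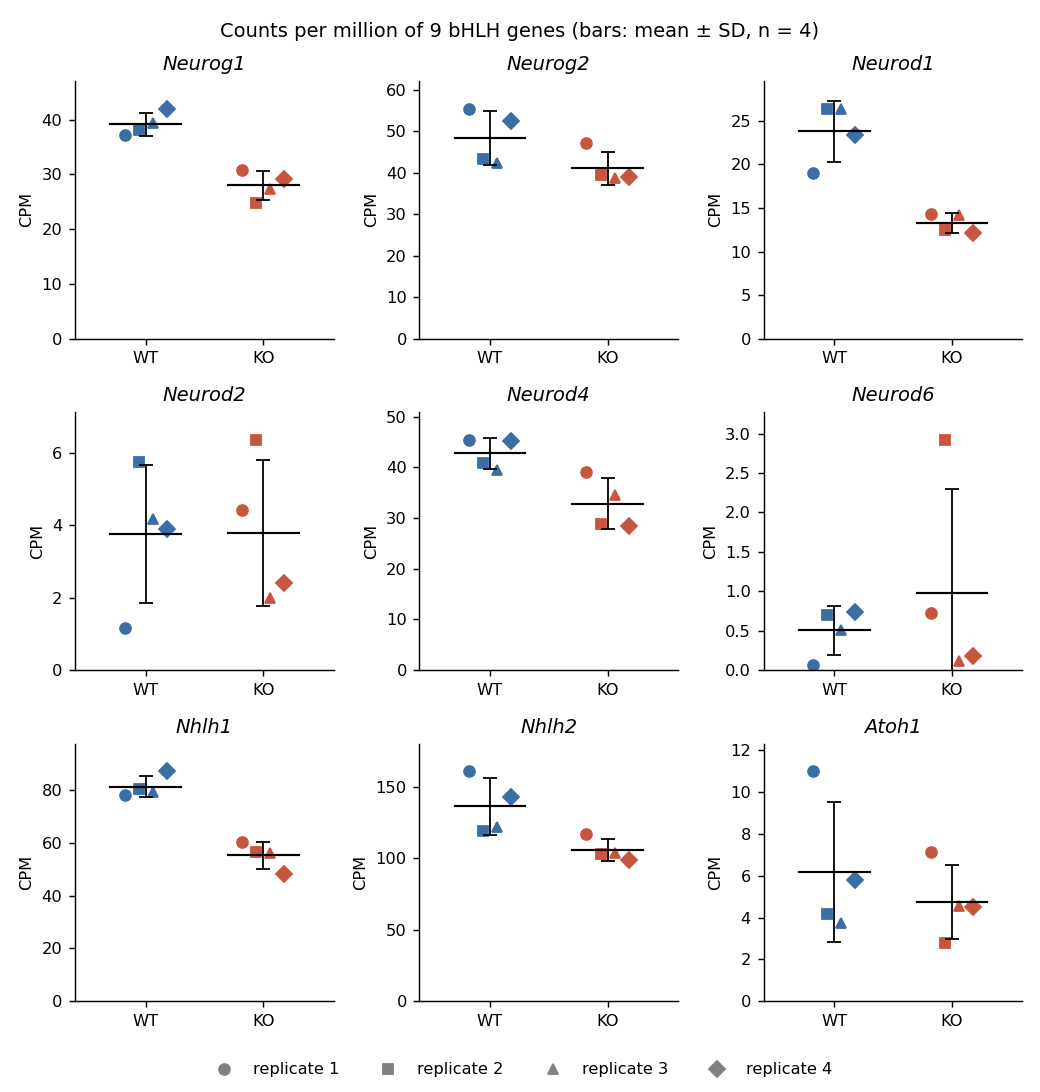
CPM of each bHLH gene (y axis, from 0) in the 4 WT and 4 KO libraries (x axis), 1 symbol per replicate number, with the mean and SD as bars; the lower SD bar of Neurod6 in KO passes below 0 and is not drawn there. Neurod1, Nhlh1, Neurog1, Neurod4 and Nhlh2 have every KO library below every WT library, whereas the groups overlap in the other 4 genes.

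Of the neurogenins, Neurog1 (ENSMUSG00000048904, mm10 chromosome 13, 56250478 to 56252163, minus strand, 1 exon) stood at 37.2, 38.1, 39.3 and 42.0 CPM across WT replicates 1 to 4, with 30.8, 24.7, 27.3 and 29.1 CPM across KO replicates 1 to 4. The lowest WT library was thus above the highest KO library. Neurog1 averaged 39.2 ± 2.07 CPM (mean ± SD, n = 4) in WT against 28.0 ± 2.62 CPM (n = 4) in KO, and its log2 fold change was −0.48 (SE 0.07, edgeR adjusted p = 0.0182). The call was lost without WT replicate 3, WT replicate 4, KO replicate 3 or KO replicate 4, at adjusted p between 0.0701 and 0.0874.

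Neurog2 (ENSMUSG00000027967, chromosome 3, 127633135 to 127635631, plus strand, 2 exons) stood at 55.5, 43.4, 42.3 and 52.4 CPM across WT replicates 1 to 4, with 47.1, 39.5, 38.8 and 39.1 CPM across KO replicates 1 to 4. KO replicate 1 was above 2 of the WT libraries, so the groups overlapped. Its log2 fold change of −0.24 had a 95% interval from −0.45 to −0.02 and did not pass (edgeR adjusted p = 0.743). The ratio of Neurog2 to Neurog1 within a library gives the test of a difference between them. Its log2 value was 0.30 ± 0.21 in WT and 0.56 ± 0.11 in KO (SD, n = 4 each), a difference of 0.26 (two-sided exact permutation p = 0.086, adjusted p = 0.11 over 5 ratios). A smaller effect on Neurog2 than on Neurog1 was therefore not shown with all 8 libraries.

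Of the NeuroD factors, Neurod1 (ENSMUSG00000034701, chromosome 2, 79452521 to 79456751, minus strand, 2 exons) had the largest fall of the 9 genes. This factor promotes differentiation of newborn sensory neurons. It stood at 19.0, 26.4, 26.4 and 23.4 CPM across WT replicates 1 to 4, with 14.3, 12.5, 14.2 and 12.1 CPM across KO replicates 1 to 4. WT replicate 1 was the lowest of its group and still above all KO libraries, whose mean was 55.8% of the WT mean. The log2 fold change was −0.83 (SE 0.11, 95% interval −1.07 to −0.59, edgeR adjusted p = 0.00987), and it was −0.79 without KO replicate 4, where the call was lost (adjusted p = 0.062).

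Neurod1 is annotated with overlapping genes, and whether reads were counted by strand is not given in the sources used here. Cerkl, which encodes a ceramide kinase-like protein, shares 201 exon bases with Neurod1 on the same strand. Cerkl held 17 to 57 counts in WT and 4 to 11 counts in KO, or 0.749 ± 0.0925 and 0.288 ± 0.118 CPM (SD, n = 4 each). It missed the threshold (log2 fold change −1.37, edgeR adjusted p = 0.106). Some of its reads may belong to Neurod1, or the reverse, but its level was far below that of Neurod1 in every library. Gm26755, a non-coding gene on the other strand with 154 shared exon bases, held at most 2 counts in a library.

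Neurod4 (ENSMUSG00000048015, chromosome 10, 130268152 to 130280240, minus strand, 2 exons), also expressed as precursors leave the cycle, stood at 45.4, 40.9, 39.4 and 45.2 CPM across WT replicates 1 to 4, with 39.1, 28.9, 34.6 and 28.5 CPM across KO replicates 1 to 4. The highest KO library lay just under the lowest WT library. Its log2 fold change of −0.38 (95% interval −0.60 to −0.16) did not pass in edgeR (adjusted p = 0.33) and passed in DESeq2 (adjusted p = 0.0415). In limma-voom it was −0.27 and did not pass (adjusted p = 0.383). The log2 ratio of Neurod4 to Neurod1 was 0.85 ± 0.31 in WT and 1.29 ± 0.11 in KO (SD, n = 4 each), a difference of 0.44 that did not pass (two-sided exact permutation p = 0.086, adjusted p = 0.11).

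Nhlh1 (ENSMUSG00000051251, chromosome 1, 172052292 to 172057573, minus strand, 2 exons) and Nhlh2 (ENSMUSG00000048540, chromosome 3, 102010076 to 102015492, plus strand, 2 to 3 exons) encode a pair of related factors of young neurons. Nhlh1 stood at 78.2, 80.5, 79.2 and 87.2 CPM across WT replicates 1 to 4, with 60.3, 56.6, 56.0 and 48.2 CPM across KO replicates 1 to 4. The gap between the lowest WT and the highest KO library exceeded the whole spread of either group. Its log2 fold change was −0.55 (SE 0.07, edgeR adjusted p = 0.00636), and among the 9 genes it alone kept its call whichever single library was left out, at adjusted p from 0.00194 to 0.0401. With the muscle and mesenchyme covariate its log2 fold change was −0.37 and the call was lost (adjusted p = 0.654). The call was also lost with a block on replicate number (edgeR adjusted p = 0.0536).

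Nhlh2 stood at 161, 119, 122 and 143 CPM across WT replicates 1 to 4, with 117, 103, 104 and 99.0 CPM across KO replicates 1 to 4. The groups did not overlap, but KO replicate 1 lay next to WT replicate 2, and WT replicate 1 was well above the rest. The log2 fold change of −0.37 (95% interval −0.58 to −0.16) did not pass in edgeR (adjusted p = 0.337) and passed in DESeq2 (adjusted p = 0.0285). In limma-voom it was −0.25 and did not pass (adjusted p = 0.303).

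The remaining factors were scarce, and their groups overlapped. Neurod2 (ENSMUSG00000038255, chromosome 11, 98325415 to 98329648, minus strand), best known from maturing neurons of the brain, stood at 1.17, 5.76, 4.19 and 3.91 CPM across WT replicates 1 to 4, with 4.44, 6.37, 1.99 and 2.40 CPM across KO replicates 1 to 4. Its log2 fold change of 0.06 had an interval from −1.17 to 1.30 (edgeR adjusted p = 0.997), so a 2-fold change in either direction lay within it.

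Neurod6 (ENSMUSG00000037984, chromosome 6, 55677822 to 55681263, minus strand), a factor of forebrain projection neurons, was counted 4, 19, 13 and 21 times across WT replicates 1 to 4, against 20, 73, 3 and 4 times across KO replicates 1 to 4. KO replicate 2, at 2.92 CPM, stood above all other libraries, which were at 0.74 CPM or less. Its log2 fold change was 1.16 (interval −1.32 to 3.65, edgeR adjusted p = 0.934), and it was −0.33 without KO replicate 2. Of 8 forebrain neuron genes 4 passed the filter on low counts, 0 were called, and their median log2 fold change was 0.30.

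Atoh1 (ENSMUSG00000073043, chromosome 6, 64729125 to 64731245, plus strand, 1 exon) stood at 11, 4.17, 3.76 and 5.81 CPM across WT replicates 1 to 4, with 7.12, 2.80, 4.54 and 4.50 CPM across KO replicates 1 to 4. Its log2 fold change of −0.42 (interval −1.32 to 0.49, edgeR adjusted p = 0.935) became 0.06 without WT replicate 1. None of 12 tested genes of dI1 interneurons and dorsal progenitors passed, their median log2 fold change was −0.17, and 0 had an unadjusted p under 0.05.

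**Figure D2:**
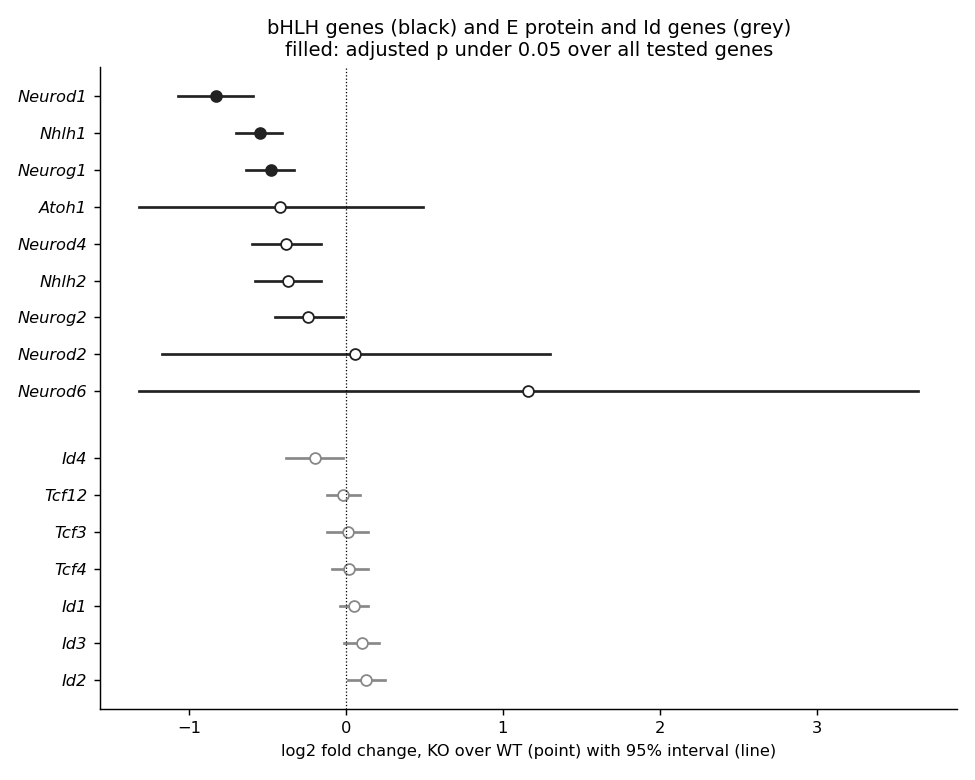
Log2 fold change of KO over WT (x axis) for the 9 bHLH genes (black) and 7 E protein and Id genes (grey), with 95% intervals from the edgeR fit; filled points have an adjusted p under 0.05. Neurod1, Nhlh1 and Neurog1 are filled, the intervals of Neurod4, Nhlh2 and Neurog2 also lie below 0, and those of Atoh1, Neurod2 and Neurod6 span 0.

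Per length of exon, the levels of the 9 genes in WT formed a ladder. In CPM per kilobase, Nhlh1 was highest at 33.0 ± 1.64, followed by Nhlh2 at 25.2 ± 3.61, Neurog1 at 23.2 ± 1.23 and Neurog2 at 21.7 ± 2.94 (SD, n = 4 each). The last 3 overlapped across libraries, so their order was not resolved, whereas every Nhlh1 value was above theirs. Neurod4 followed at 12.8 ± 0.895, Neurod1 at 8.71 ± 1.29, Atoh1 at 2.91 ± 1.56, Neurod2 at 1.2 ± 0.606 and Neurod6 at 0.234 ± 0.145 CPM per kilobase. Neurod4 and Neurod1 overlapped neither each other nor the genes beside them, while the ranges of Atoh1 and Neurod2 overlapped. In KO, Nhlh1 was at 22.4 ± 2.07 CPM per kilobase, and its range overlapped those of Nhlh2 at 19.5 ± 1.45 and Neurog2 at 18.5 ± 1.8. Neurog1, at 16.6 ± 1.55, was below the Nhlh2 mean and overlapped Neurog2. Neurod1 was at 4.87 ± 0.411 CPM per kilobase, below Neurod4 at 9.80 ± 1.51 in every library, as it was in WT.

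Libraries of the same genotype were not ranked alike by the 9 genes. WT replicate 1 had the lowest WT value in 5 of them (Neurog1, Neurod1, Neurod2, Neurod6 and Nhlh1) and the highest in the other 4 (Neurog2, Neurod4, Nhlh2 and Atoh1). KO replicate 1 had the highest KO value in 7, all except Neurod2 and Neurod6, which were highest in KO replicate 2. The library with the largest depth thus lay at an end of its group for every one of the 9 genes. Thinned to the median depth of the others, it left the same 3 genes called, with log2 fold changes of −0.82 for Neurod1, −0.54 for Nhlh1 and −0.49 for Neurog1.

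Whether one factor fell more than another was tested within libraries, as the log2 ratio of 2 genes. In Neurod1 to Neurog1, a later to an earlier factor of the same lineage, the ratio was −0.97, −0.53, −0.57 and −0.84 across WT replicates 1 to 4, against −1.10, −0.97, −0.94 and −1.26 in KO replicates 1 to 4. KO replicate 3 lay above WT replicate 1, so the groups overlapped, and the difference of −0.34 did not pass (two-sided exact permutation p = 0.057, adjusted p = 0.11). The ratio of Nhlh1 to Neurog1 was 1.05 ± 0.03 in WT and 0.98 ± 0.20 in KO (SD, n = 4 each; difference −0.07, two-sided exact permutation p = 0.63, adjusted p = 0.63).

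Neurod1 was also set against Pou4f1, a homeobox gene of sensory neurons that itself fell (log2 fold change −0.52, edgeR adjusted p = 0.0188). Their log2 ratio was −2.08, −1.86, −1.92 and −2.09 across WT replicates 1 to 4, against −2.25, −2.42, −2.25 and −2.26 in KO replicates 1 to 4. All 4 KO libraries were lower than any WT library. The difference of −0.31 reached the smallest p that 70 assignments of 4 and 4 libraries allow (two-sided exact permutation p = 0.029), and missed the threshold after adjustment over the 5 ratios (adjusted p = 0.11). Without WT replicate 1, 4 of the 5 ratios passed at an adjusted p = 0.036 (exact permutation), each at the smallest p that 3 against 4 libraries allow. These 4 were Neurod1 to Neurog1 with a difference of −0.42, Neurog2 to Neurog1 with 0.35, Neurod4 to Neurod1 with 0.57 and Neurod1 to Pou4f1 with −0.34. Without any other single library none of the 5 passed, at adjusted p of 0.11 or more.

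**Figure D3:**
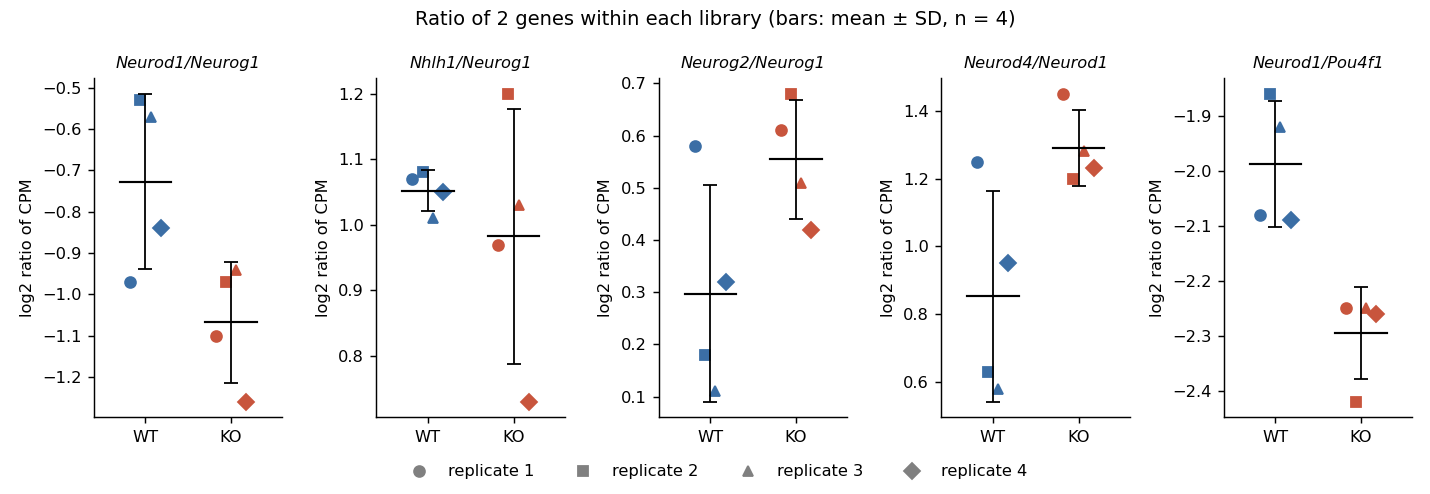
Log2 ratio of 2 genes within each library (y axis, a different range in each panel) in the 4 WT and 4 KO libraries, with mean and SD as bars. WT replicate 1 lies nearest to or among the KO libraries in the Neurod1/Neurog1, Neurog2/Neurog1 and Neurod4/Neurod1 panels, and only Neurod1/Pou4f1 has groups that do not overlap.

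No dimer partner of these factors passed the test. Of 7 tested E protein and Id genes, 0 passed, and the median log2 fold change was 0.02, against −0.003 for all tested genes. The E protein genes Tcf3, Tcf4 and Tcf12 had log2 fold changes of 0.01, 0.02 and −0.02. The smallest p-values were those of Id4, Id2 and Id3, at log2 fold changes of −0.20, 0.13 and 0.10. Id4 had 57.0 ± 2.87 CPM (mean ± SD, n = 4) in WT against 49.4 ± 6.32 CPM (n = 4) in KO (edgeR adjusted p = 0.731).

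Other bHLH factors with roles in neural tissue did not pass either. Of 11 such genes 9 were tested, 0 passed, and 7 had a negative log2 fold change. Tal1 and Tal2 had log2 fold changes of 0.31 and 0.66 with every KO library above every WT library, where 1.69% of all tested genes showed that order. Which cells of the mixed tissue held their RNA was not tested. Neither passed (edgeR adjusted p = 0.168 and 0.731), and Tal2 averaged under 1 CPM. Bhlhe22 had a log2 fold change of −0.19.

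In the Notch pathway, through which proneural factors act on neighbouring cells, 1 of 19 tested genes fell, 0 rose and 18 did not pass. Over all tested genes 0.243% fell and 0.056% rose. Of the 19, 6 were lower and 1 higher at an edgeR unadjusted p under 0.05, against 3.32% and 3.03% of all tested genes. The gene that fell was Jag1, a Notch ligand, at 58.4 ± 1.83 CPM (mean ± SD, n = 4) in WT against 41.3 ± 1.58 CPM (n = 4) in KO (log2 fold change −0.50, SE 0.05, edgeR adjusted p = 0.00208). Nrarp, a feedback inhibitor of Notch, and Hey1, a Hes-related repressor, missed the threshold at log2 fold changes of −0.27 and −0.19. Dll1, the ligand that neurogenins switch on, had a log2 fold change of −0.05.

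None of the neuronal differentiation genes that act downstream of proneural factors passed. Of 20 tested, 18 had a negative log2 fold change, with a median of −0.15, and 51.6% of all tested genes were negative. Of the 20, 10 were lower and 0 higher at an edgeR unadjusted p under 0.05, where 3.32% and 3.03% of all tested genes were. Gadd45g, a growth arrest gene of newly born neurons, had 51.1 ± 1.29 CPM (mean ± SD, n = 4) in WT against 42.4 ± 2.21 CPM (n = 4) in KO (log2 fold change −0.27) and just missed the threshold (edgeR adjusted p = 0.0541). Srrm4, a neuronal splicing regulator, had −0.29 (adjusted p = 0.135) and Insm1, a zinc-finger factor of cells leaving the cycle, −0.33 (adjusted p = 0.135). In these 3 genes, named for the smallest p of the 20, every KO library was below every WT library, against 2.45% of all tested genes.

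Of 18 tested sensory neuron genes 4 fell, 0 rose and 14 did not pass, with a median of −0.31, where 0.243% of all tested genes fell and 0.056% rose. All 18 had a negative log2 fold change. At an edgeR unadjusted p under 0.05, 12 were lower and 0 higher, against 3.32% and 3.03% of all tested genes. In 6 of the 18 every KO library was below every WT library, against 2.45% of all tested genes. Among the 4 that fell, Tlx2, a homeobox gene of sensory and autonomic neurons, fell by 0.74 on the log2 scale, Pou4f1 by 0.52 and Eya2, a transcriptional co-activator, by 0.39. All 10 tested genes of neural progenitors and cycling cells had a negative log2 fold change with a median of −0.07, and 0 passed, Sox2, Fabp7 and Nes having −0.22, −0.21 and −0.11. Among 8 neural crest and ganglion glia genes Foxd3 fell by 0.57 on the log2 scale, 0 rose and 7 did not pass, among them Erbb3 at 0.13. Blood and vessel genes had a median of −0.02, with 0 of 8 passing.

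**Figure D4:**
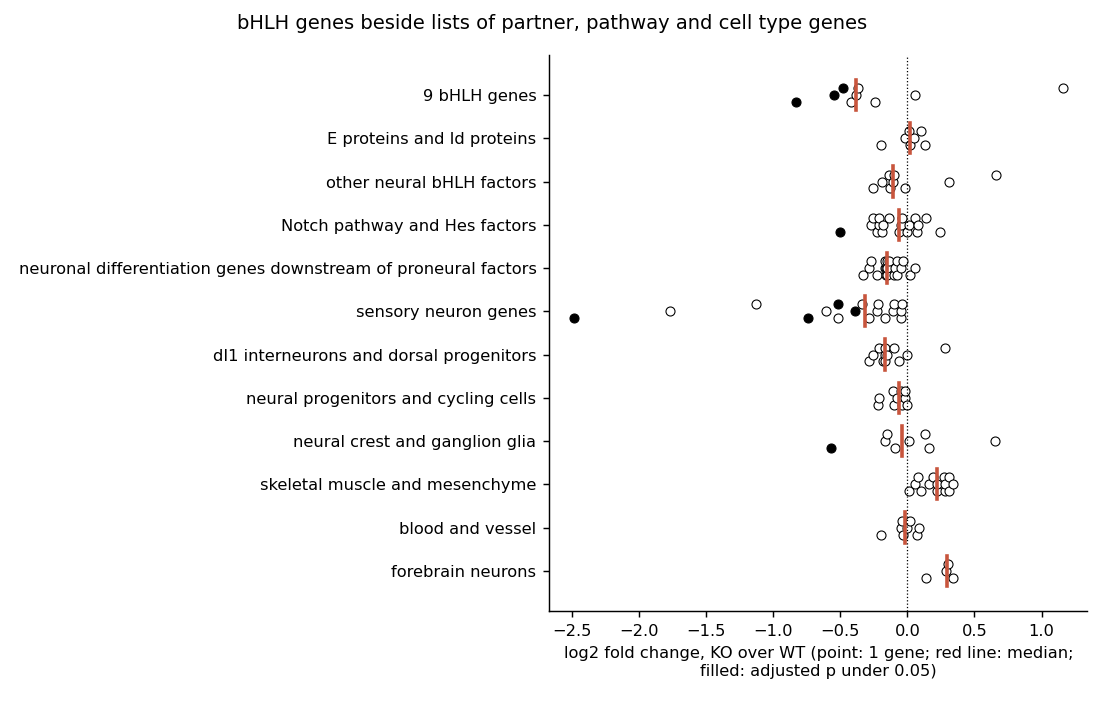
Log2 fold change of KO over WT (x axis) of every tested gene in the 9 bHLH genes and in each list of partner, pathway and cell type genes (rows); red lines are medians, and filled points have an adjusted p under 0.05. The bHLH median of −0.38 lies beside the sensory neuron median of −0.31, and the muscle and mesenchyme median is above 0.

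Genes of skeletal muscle and mesenchyme had log2 fold changes opposite in sign to those of the sensory neuron genes. All 14 tested had a positive log2 fold change, with a median of 0.22, and 0 passed. Of the 14, 5 were higher and 0 lower at an edgeR unadjusted p under 0.05, against 3.03% and 3.32% of all tested genes. For 2 of the 14 every KO library was above every WT library, against 1.69% of all tested genes. Myod1, the myogenic factor, was the one with the smallest p, at 42.1 ± 4.20 CPM (mean ± SD, n = 4) in WT against 53.1 ± 7.82 CPM (n = 4) in KO (log2 fold change 0.34, edgeR adjusted p = 0.53), and Des and Myl4 had 0.28 and 0.27. The summed level of the 14 genes ranged from 2080 to 2730 CPM in WT and from 2730 to 2940 CPM in KO. Of this sum 1 gene alone held 840 to 1360 CPM in WT, lowest in WT replicate 1, and 1240 to 1470 CPM in KO. None of the 14 was at 0 in any library.

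With the mean log2 CPM of this list as a covariate, none of the 9 bHLH genes passed, and 1 gene of 16068, Prdm12, did. Neurod1 then had a log2 fold change of −0.88 (SE 0.18, edgeR adjusted p = 0.654), Neurog1 one of −0.42 (SE 0.12, adjusted p = 1.0) and Nhlh1 one of −0.37 (SE 0.08, adjusted p = 0.654). The log2 fold changes of Neurod4 and Nhlh2 went from −0.38 to −0.09 and from −0.37 to −0.07, and that of Neurog2 from −0.24 to 0.07. Of the 3 fallen genes, Neurod1 and Neurog1 moved by less than 1 SE of the covariate fit and Nhlh1 by more than 1 SE. The score ranged from 6.32 to 6.47 in WT and from 6.45 to 6.72 in KO, so it was partly confounded with genotype.

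**Figure D5:**
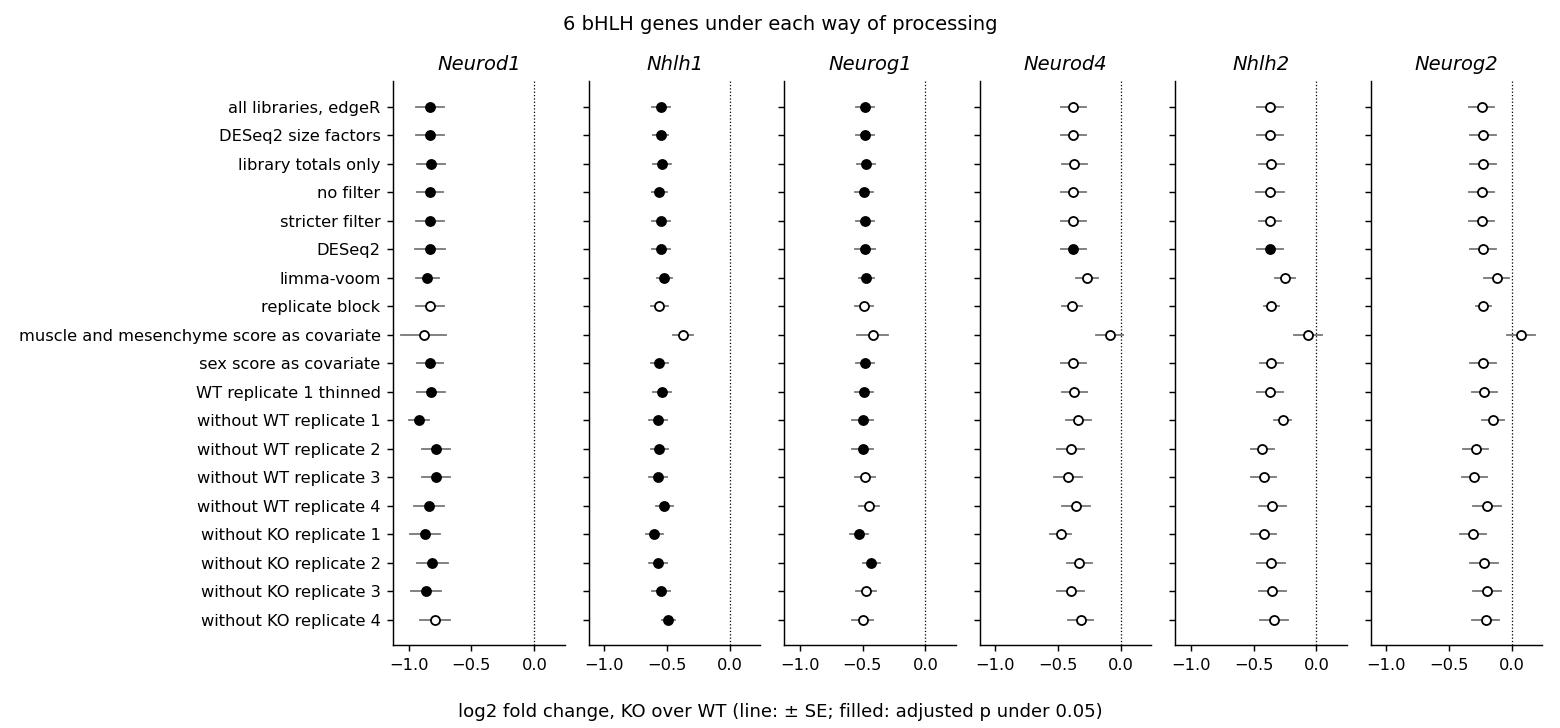
Log2 fold change of KO over WT (x axis, line: SE) of 6 bHLH genes under each way of processing (rows); filled points have an adjusted p under 0.05. The points of Neurod1, Nhlh1 and Neurog1 stay below 0 in every row, and those of Neurod4, Nhlh2 and Neurog2 come near 0 with the muscle and mesenchyme covariate.

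Genes whose deviations from the group means were most like those of the 3 fallen genes over the 8 libraries were sought among 14292 genes of at least 1 CPM, as a description. They were Fam207a, Tex264 and 1700019D03Rik for Neurog1 (Pearson r = 0.965, 0.962 and 0.951), and Cdadc1, Ywhab and Fkbp7 for Neurod1 (r = 0.967, 0.956 and 0.955). For Nhlh1 they were Wdr37, Mir9-3hg and Id4 (r = 0.974, 0.971 and 0.956). None of these 9 genes passed in the comparison of KO with WT, and over so few libraries the closest of many genes have a high r by selection.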

How the data were processed

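Total RNA was sequenced from 8 libraries, per the labels. The authors deposited a raw count for each gene in each library. The submitters' processing notes name build mm10 and, without roles, featureCounts 1.4.6-p1, STAR 2.3.0e, DESeq2 1.8.2, FastQC 0.10.1 and SAMtools 0.1.18. Not given in the sources used here were the annotation, strand setting and treatment of shared reads. The 5 summary rows held 0 counts and were left out. Symbols, coordinates and exon lengths came from GENCODE M21 (GRCm38), which matched 36602 of 38355 identifiers. No 2 libraries of a group agreed within sampling noise (chi-square over degrees of freedom of 4.92 or more).

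KO was compared with WT in edgeR 4.0.16 (R 4.3.3; filterByExpr, TMM, robust quasi-likelihood F test, group alone), with Benjamini-Hochberg adjustment over 16068 genes. Ratios of genes used log2 CPM with a prior count of 2 and exact permutation tests, adjusted over the 5 ratios. On simulated counts (16101 genes) the fit recovered 94% of genes changed 1.5-fold, and 5.4% of its calls were unchanged genes. The simulation gave every gene the same spread between libraries (biological coefficient of variation 9.6%) and changed only genes of at least 1 CPM. Recovery was not measured for genes that vary more, so a gene that was not called may still have changed 1.5-fold. Alternatives were other scalings, filters, tools (limma 3.58.1, DESeq2 1.42.0) and covariates, a thinned WT replicate 1 and fits without each library. The members, lists and tests were chosen with earlier results of these data known. Text names all 9 bHLH genes, Prdm12, up to 3 genes of each list with the smallest p, and the 3 genes most like each fallen gene; other names were chosen after their values were seen. Some genes of these lists are not reported here.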

Additional observations from a re-analysis of the deposited data

Results flagged for a closer look

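In 28 sets of 4 values (each of the 9 bHLH genes and each of the 5 ratios in each group), 2 had a library far from the other 3 by Dixon's test at its 95% critical value, and chance alone flags about 1 in 20 such sets. Neurog2 was at 47.1 CPM in KO replicate 1, and at 38.8 to 39.5 CPM in the other KO libraries. The log2 ratio of Neurod1 to Pou4f1 was −2.42 in KO replicate 2, and −2.26 to −2.25 in the other KO libraries.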

How the results depend on the processing

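Whichever setting was used, Neurod1, Nhlh1 and Neurog1 had negative log2 fold changes (−0.92 to −0.78, −0.60 to −0.37 and −0.53 to −0.42), and the other scalings, filters and tools, a covariate of sex-linked genes and the thinned library kept all 3 calls. DESeq2 called 5 bHLH genes lower and 82 genes lower and 19 higher over all, limma-voom 102 and 23, and the muscle and mesenchyme covariate 0 bHLH genes, 1 gene lower and 0 higher (249 and 167 at an unadjusted p under 0.05). Without single libraries 1 to 3 bHLH genes, 12 to 112 genes lower and 3 to 21 higher were called, the 112 and 21 without WT replicate 1 and the 1 bHLH gene without KO replicate 4. The labels do not say whether the replicate numbers pair the libraries. Same-numbered deviations correlated at −0.11, 0.28, −0.19 and −0.01, and other pairs of a WT and a KO library at −0.49 to 0.33. These correlations cannot decide whether libraries were paired. A replicate block gave 0 bHLH genes (adjusted p = 0.0503 for Neurod1 and 0.0536 for Nhlh1 and Neurog1), 14 genes lower and 2 higher. Signs changed for Neurog2 with the muscle covariate (0.07), for Atoh1 with that covariate (0.46), limma-voom (0.07) and without WT replicate 1 (0.06; range −0.68 to 0.06), for Neurod6 with limma-voom (−0.02) and without KO replicate 2 (range −0.33 to 1.53), and for Neurod2 with limma-voom (−0.10), the sex-linked covariate (−0.00) and without WT replicate 1, KO replicate 1 or KO replicate 2 (range −0.30 to 0.36); the cause was not tested. Without single libraries the ratio differences ranged from −0.42 to −0.27 (Neurod1/Neurog1), −0.14 to 0.01 (Nhlh1/Neurog1), 0.20 to 0.35 (Neurog2/Neurog1), 0.34 to 0.57 (Neurod4/Neurod1) and −0.34 to −0.26 (Neurod1/Pou4f1). A prior count of 0.5 changed no call of a ratio. Neurod6, at 3 to 73 counts a library, was not tested with the stricter filter.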
